A study of Mus musculus with 32 samples.

Results

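The nuclear genome encodes most proteins of oxidative phosphorylation, and 91 such genes were followed in spinal cord from mice with the CHMP2Bintron5 transgene and from controls. They were the protein-coding genes whose symbols name subunits of complexes I to IV and of the ATP synthase, cytochrome c, or Nduf assembly factors. A mean of at least 1 CPM, a count scaled to the library's total, over all 32 libraries was also required, and neither genotype nor age entered the choice. Of 45706 genes in the count table, 95 protein-coding genes matched by symbol and 91 passed the level. The 4 left out were Cox7b2 at 0.973 CPM, Cox8b at 0.959 CPM, Cox6a2 at 0.552 CPM and Cox8c at 0.00338 CPM, and the lowest kept were Cox4i2 at 2.1 CPM, Ndufa4l2 at 3.03 CPM and Cox7a1 at 4.0 CPM. Complex I gave 36 genes (7 core and 29 accessory subunits) beside 8 assembly factors, complex II 4, complex III 9, cytochrome c 1, complex IV 16 (14 subunits and 2 related genes) and the ATP synthase, or complex V, 17.

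Oxidative phosphorylation takes place at the inner mitochondrial membrane. Complexes I and II pass electrons from NADH and succinate to ubiquinone, complex III passes them to cytochrome c, and complex IV passes them to oxygen. Complexes I, III and IV pump protons as they do so, and the ATP synthase uses the returning protons to make ATP. Complex II is encoded by nuclear genes alone, while the other complexes combine nuclear subunits with a few made from mitochondrial DNA (mtDNA). Neurons use much of this ATP to restore ion gradients, and motor neurons in the cord supply mitochondria to long axons.

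CHMP2B is a subunit of the membrane-cutting complex ESCRT-III, and CHMP2Bintron5 is a truncated form known from familial frontotemporal dementia. The transgenic mice carried 12 copies of the transgene, per the labels, and the controls carried none. All mice were of mixed FVB/N, C57BL/6 and DBA/2 background. Cord was taken at 1.5, 6 and 10-12 months from 6, 5 and 6 controls and from 5, 4 and 6 CHMP2Bintron5 samples, giving 17 control and 15 transgenic libraries. The design text counts 4 transgenic samples at 1.5 months and gives the oldest age as 12 months, and the labels of the samples were followed. Neither the promoter of the transgene nor whether each sample was a separate animal is given in the sources used here, so p-values measure the spread between these samples.

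Total counts ran from 28368376 to 85348326 per library. Summed markers of neurons (8836 to 13337 CPM, 14 genes), oligodendrocytes (13919.7 to 31430.5 CPM, 10 genes) and astrocytes (4001 to 6970 CPM, 9 genes) were high in all 32 libraries, with none of these genes at 0 in any library. CHMP2Bintron5 replicates 2 and 3 at 6 months also held transcripts of sensory ganglion neurons, with Avil at 59.9 and 146 CPM against at most 1.41 CPM elsewhere, and 6 libraries had Acta1, skeletal muscle actin, above 30 CPM. Libraries also differed in how strongly counts followed the base composition and length of genes, and the values this touches are given below.

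Promoters of the family are known for binding sites of NRF1, ETS-family factors such as GABPA, YY1 and ERR receptors, so windows from 250 bases before to 50 bases after the start were searched for 1 short form of each, on both strands. RefSeq windows of GRCm38.p6 were found for 75 of the 91 genes. NRF1's form GCGCATGCG lay in 11 of the 75 windows, 14.7%, against 2.61% of 17492 protein-coding genes. The ETS form CCGGAAG lay in 18, 24.0% against 12.9%. YY1's form AAGATGGCG lay in 8, 10.7% against 2.14%, and the ERR form TCAAGGTCA in 2, 2.67% against 0.377%. The ETS form ends in the letters AAG that begin the YY1 form, so both can lie at one place. A match is a description and not a site.

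The 250 bases before the start are shown for 4 genes whose windows hold no annotated exon, to place genes with an NRF1, ETS or ERR match beside one with none. Ndufaf4 (chr4:24897833-24898082, plus strand) and Ndufaf1 (chr2:119662835-119663084, minus strand) encode assembly factors of complex I that were lower in CHMP2Bintron5 cord at 10-12 months. Ndufaf4 has the NRF1 form on both strands at one place, 113 bases before the start, and Ndufaf1 the ETS form 18 bases before it. Atp5g3 (chr2:73911327-73911576, minus strand), 1 of 3 genes for the membrane ring of the ATP synthase, has the ERR form 52 bases before the start, on the other strand, and was not called. Ndufa9 (chr6:126849145-126849394, minus strand), an accessory subunit of complex I that was lower at all 3 ages, has none of the 4 forms in these bases, and its YY1 form lies just past the start. Each runs 5′ to 3′ toward the gene, and capitals mark the match.
Ndufaf4: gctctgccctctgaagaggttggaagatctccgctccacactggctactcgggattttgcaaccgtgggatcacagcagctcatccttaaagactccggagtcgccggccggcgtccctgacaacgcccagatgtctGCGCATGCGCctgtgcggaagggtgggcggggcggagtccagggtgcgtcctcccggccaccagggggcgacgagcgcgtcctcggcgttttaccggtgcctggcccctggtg
Ndufaf1: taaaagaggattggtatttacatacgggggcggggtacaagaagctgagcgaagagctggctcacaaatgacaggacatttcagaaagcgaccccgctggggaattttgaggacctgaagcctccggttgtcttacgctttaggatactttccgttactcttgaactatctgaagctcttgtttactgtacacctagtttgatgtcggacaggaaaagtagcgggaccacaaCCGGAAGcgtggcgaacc
Atp5g3: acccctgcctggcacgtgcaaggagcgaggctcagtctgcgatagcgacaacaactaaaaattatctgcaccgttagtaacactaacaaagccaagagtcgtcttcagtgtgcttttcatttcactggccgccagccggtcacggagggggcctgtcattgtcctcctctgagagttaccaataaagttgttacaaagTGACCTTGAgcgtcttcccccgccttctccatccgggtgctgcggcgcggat
Ndufa9: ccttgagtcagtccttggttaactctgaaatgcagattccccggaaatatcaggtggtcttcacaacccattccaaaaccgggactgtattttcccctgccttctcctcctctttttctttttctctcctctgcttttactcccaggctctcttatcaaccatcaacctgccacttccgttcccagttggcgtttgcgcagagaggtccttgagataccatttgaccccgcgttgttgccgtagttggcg

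Of the 18 genes that were called lower at any age or on average and had a window, 2 held the NRF1 form, 4 the ETS form, 3 the YY1 form and 1 the ERR form. These shares rest on few genes, and which factor binds was not measured.

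A minority of the 91 genes differed between genotypes, and nearly all of those were lower with the transgene. At 1.5 months 6 genes fell and none rose, 6.59% of the 91, against 1.97% lower and 1.76% higher among all 20015 genes tested. At 6 months 7 fell and none rose (7.69%), against 5.68% lower and 5.68% higher. At 10-12 months 16 fell and 1 rose (17.6% and 1.1%), against 10.4% and 8.24%. With genotype averaged over the 3 ages 23 fell and 2 rose (25.3% and 2.2%), against 19.2% and 19.7%. Calls rest on edgeR's quasi-likelihood test, fitted to all libraries and genes, at a Benjamini-Hochberg p under 0.05. Fitted on the 1.5-month libraries alone, none of the 6 genes of that age was called, and without the filter on low counts 1 was. The shares of all genes called in these fits are not given here. Most of the 91 were not called, and the median of their log2 fold changes ran 0.01, -0.04 and -0.05 with age and was -0.03 on average, beside 0.00, 0.02, 0.02 and 0.02 for all genes. The share below zero was 57.1% on average, beside 47.6% of all genes. Without CHMP2Bintron5 replicates 2 and 3 at 6 months the median was 0.05 at that age and 0.00 on average, with 40.7% and 49.5% below zero, beside 47.7% and 47.1% of all genes.

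The genes that fell did so by small amounts. Called lower at all 3 ages were Ndufs1, Ndufa9, Sdha, Atp5a1 and Atp5b, and 17 genes were called lower at 1 age or more. Shares of all genes called lower at all 3 ages, or at 1 age or more, are not given here. The same comparison read without a model gave 5, 11 and 7 genes whose CHMP2Bintron5 libraries all lay below every control at 1.5, 6 and 10-12 months, and none that lay above. The share of all genes was 1.87%, 7.08% and 3.88% below and 1.56%, 6.03% and 3.16% above. Atp5b and Ndufs1 separated in this way at all 3 ages. Atp5a1, Atp5c1, Atp5f1, Cycs, Ndufa9 and Sdha did so at 2 ages, and Cox7b, Sdhc, Sdhd and Uqcrc2 were among those that did so at 1 age. No share of all genes is given for separation at 2 or 3 ages.

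Markers of cell types moved with genotype as well. In bulk tissue fewer cells of a type and less RNA per cell cannot be told apart. Summed neuron markers were 11.9%, 14.9% and 18.7% lower in CHMP2Bintron5 at the 3 ages, with 2, 4 and 6 of 14 genes called lower and none higher. The median log2 fold change of these 14 genes was -0.04, -0.06 and -0.08, with 8, 8 and 10 below zero, and on average over the ages 6 fell and 2 rose. Oligodendrocyte markers were 22.1%, 25% and 14.6% lower, with 5, 5 and 4 of 10 called lower. Endothelial markers were 10.4%, 19.3% and 22.3% lower, with 0, 4 and 5 of 8 called lower. Microglial markers were 90.5%, 8.88% and 21.1% higher, with 10, 0 and 5 of 12 called higher and 0, 1 and 0 called lower. The 6-month value was 1.78% without CHMP2Bintron5 replicate 1. Motor neuron markers were 33.2%, 46.6% and 25.5% higher, with 1, 2 and 1 of 6 genes called higher and none lower. The 6-month value was 29.8% without CHMP2Bintron5 replicate 3 and 10.0% without replicates 2 and 3. Astrocyte markers were 23.3% higher, 7.49% lower and 3.62% higher, and at 6 months single omissions gave -11.8% to -3.77%. Sensory neuron markers were 35.1%, 363% and 49.7% higher, with 10 of 10 tested called higher at 6 months, where the value was 177% without CHMP2Bintron5 replicate 3 and 45.4% without replicates 2 and 3. Prph belongs to both the motor neuron and the sensory neuron list, so these sums share its counts. Red cell markers were 79.0% higher, 3.12% lower and 54.7% higher, with none called, and single omissions gave 22.8% (without CHMP2Bintron5 replicate 4) to 135% (without control replicate 3) at 1.5 months and -27.8% (without CHMP2Bintron5 replicate 1) to 29.3% (without control replicate 1) at 6 months. No marker of these lists was at 0 in any library but 3 of the sensory neuron list (Scn10a, Mrgprd and Tmem233), and their part in the differences of the 91 genes was not tested.

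**Figure D1:**
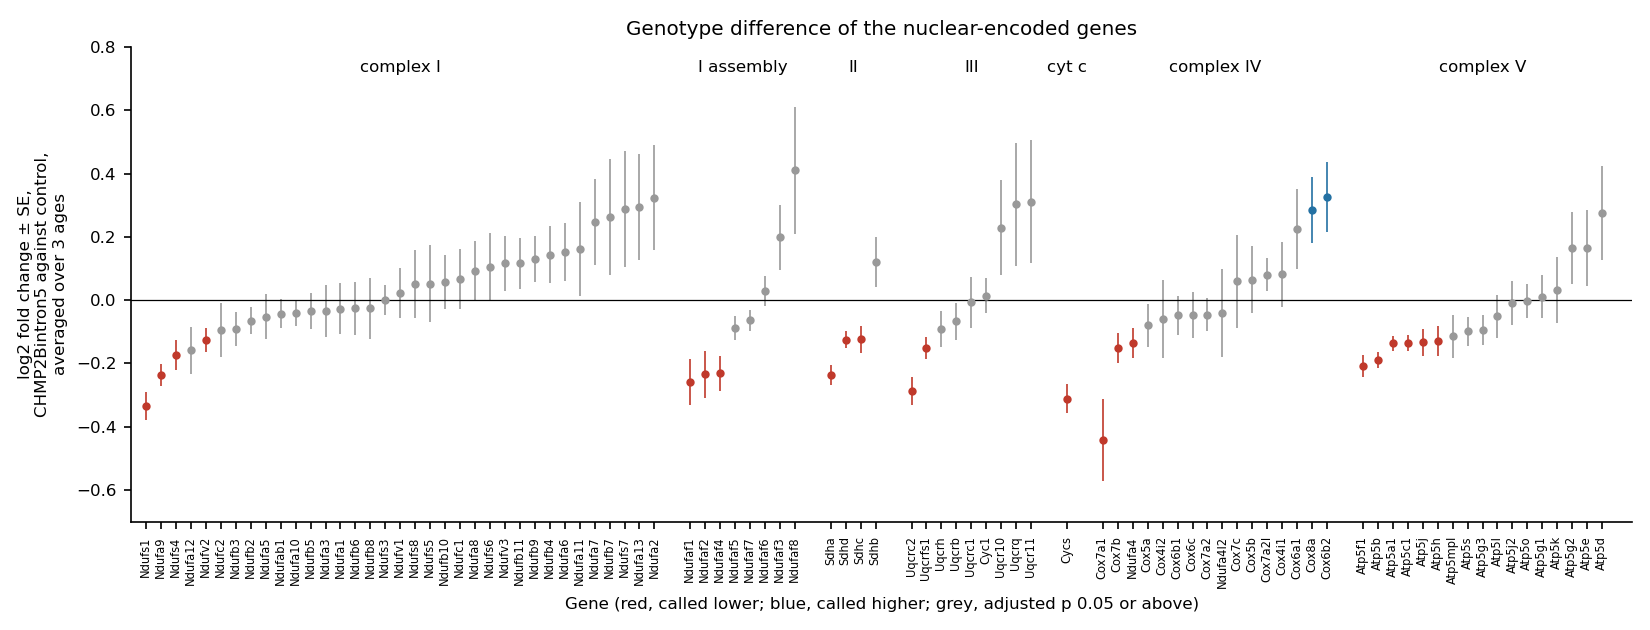
Genotype log2 fold change averaged over the 3 ages (vertical axis, points with SE) for each of the 91 genes but 1 (horizontal axis), grouped by complex and ordered by value. Red marks genes called lower, blue the 2 called higher and grey those not called. The called genes of complex V and II lie between -0.12 and -0.24. With uncalled genes included, complexes I, II, IV and V each have genes on both sides of zero.

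In complex I, the NADH dehydrogenase, 2 subunits of the matrix arm stood apart from the rest. Ndufs1 (ENSMUSG00000025968, chromosome 1, 63143596 to 63176833, minus strand) encodes the largest iron-sulfur subunit of the core, which takes electrons near the NADH site. At 1.5 months Ndufs1 stood between 178 and 208 CPM (median 198, n = 6) in controls and at 161, 176, 175, 141 and 164 CPM in CHMP2Bintron5 cord. At 6 months Ndufs1 was at 172, 175, 189.9, 196 and 209.7 CPM in controls and at 166, 139, 140.3 and 133 CPM in CHMP2Bintron5 cord. At 10-12 months Ndufs1 was between 177 and 227 CPM (median 184, n = 6) in controls and between 137 and 166 CPM (median 153, n = 6) in CHMP2Bintron5 cord. The groups did not overlap at any age, and the replicate numbered 4 was the lowest transgenic one at 1.5 and at 6 months. In order of age Ndufs1 differed by -0.26 ± 0.08 (SE; adjusted p = 0.0467), -0.38 ± 0.08 (SE; adjusted p = 0.00397) and -0.36 ± 0.07 (SE; adjusted p = 0.00104) on the log2 scale, and by -0.34 ± 0.04 (SE; adjusted p = 1.56e-06) on average, a level 20.7% lower. With offsets for GC content and length the average was -0.21 (adjusted p = 1.22e-06). Leaving out any 1 library kept the calls at 6 and 10-12 months, and 21 of 32 omissions ended the one at 1.5 months.

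Ndufa9 (ENSMUSG00000000399, chromosome 6, 126821721 to 126849136, minus strand) encodes an accessory subunit where the matrix arm meets the membrane arm. At 1.5 months Ndufa9 stood between 116 and 152 CPM (median 138, n = 6) in controls and at 120.4, 109.9, 116, 129 and 117 CPM in CHMP2Bintron5 cord. At 6 months Ndufa9 was at 146, 147, 141, 136 and 144 CPM in controls and at 126, 121, 119 and 112 CPM in CHMP2Bintron5 cord. At 10-12 months Ndufa9 was between 132 and 146 CPM (median 139, n = 6) in controls and between 108 and 124 CPM (median 119, n = 6) in CHMP2Bintron5 cord. Control replicate 3 at 1.5 months was the only control of any age inside the range of the CHMP2Bintron5 libraries of its age. On the log2 scale the difference in Ndufa9 was -0.21 ± 0.06 (SE; adjusted p = 0.0278), -0.26 ± 0.06 (SE; adjusted p = 0.0079) and -0.24 ± 0.05 (SE; adjusted p = 0.00344), and -0.24 (adjusted p = 2.08e-06) on average with the GC and length offsets, against -0.24 without them.

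Other core subunits included Ndufv1, which binds NADH, and Ndufs7, which holds the last iron-sulfur cluster before ubiquinone. Ndufv1 was at 192 ± 35.6 (SD, n = 6) CPM in controls and 202 ± 19.8 (SD, n = 6) CPM in CHMP2Bintron5 at 10-12 months, and on average it differed by 0.02 ± 0.08 (SE; adjusted p = 0.838) on the log2 scale, with an unadjusted 95% interval of -0.14 to 0.19. Ndufs7 spread widely within groups, from 22.1 to 67.9 CPM in controls and from 32.1 to 104 CPM in CHMP2Bintron5 at 1.5 months, and its interval ran -0.09 to 0.67. Ndufv2, a partner of Ndufv1, was called on average (-0.13 ± 0.04 SE, adjusted p = 0.0103) and at no single age, as was the accessory subunit Ndufs4 (-0.17 ± 0.05 SE, adjusted p = 0.00412). Both calls were lost with the GC and length offsets, and both without CHMP2Bintron5 replicates 2 and 3 at 6 months. Of the 36 subunits 5 fell on average (13.9%, against 19.2% of all genes) and none rose, and the median was 0.01. Their summed level differed by 0.191%, -0.559% and 0.649% at the 3 ages, and single omissions turned the sign at each. They gave -6.78% (without CHMP2Bintron5 replicate 4) to 3.69% (without control replicate 6) at 1.5 months, -3.68% to 3.90% (without control replicates 5 and 2) at 6 months and -4.20% (without CHMP2Bintron5 replicate 2) to 5.68% (without control replicate 1) at 10-12 months. The sum was 3737 ± 502 (SD, n = 6) CPM in controls and 3761 ± 553 (SD, n = 6) CPM in CHMP2Bintron5 at 10-12 months.

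Assembly factors of complex I, which build the enzyme and then leave it, were called at the oldest of the single ages. Of 8 factors 3 fell at 10-12 months (37.5%, against 10.4% of all genes) and none at 1.5 or 6 months. Ndufaf1 (ENSMUSG00000027305, chromosome 2, 119655446 to 119662827, minus strand), which helps build the membrane arm, was between 14.7 and 27.3 CPM (median 21, n = 6) in controls and between 13.3 and 18.4 CPM (median 14.4, n = 6) in CHMP2Bintron5 cord at that age. Ndufaf4 (ENSMUSG00000028261, chromosome 4, 24898083 to 24905001, plus strand) was between 33.8 and 50.1 CPM (median 42.6, n = 6) in controls and between 30.3 and 39.3 CPM (median 31.7, n = 6) in CHMP2Bintron5 cord. The ranges overlapped for both. Ndufaf1 differed by -0.44 ± 0.12 (SE; adjusted p = 0.0111) on the log2 scale, against 0.00 ± 0.12 (SE; adjusted p = 0.998) at 1.5 months, and the difference between these ages was -0.44 ± 0.17 (SE; adjusted p = 0.72), which did not pass the test. Its call was lost without control replicate 3 (adjusted p = 0.0517). Ndufaf4 was at -0.34 ± 0.09 (SE; adjusted p = 0.00868) and Ndufaf2, a factor of the late steps, at -0.37 ± 0.12 (SE; adjusted p = 0.0282). With the GC and length offsets neither Ndufaf4 nor Ndufaf2 was called at 10-12 months.

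Complex II, succinate dehydrogenase, is also an enzyme of the citric acid cycle, and its summed level was lower at each age. It was 973 ± 38.9 (SD, n = 6) CPM in controls and 889 ± 16.5 (SD, n = 5) CPM in CHMP2Bintron5 at 1.5 months. At 6 months the sums were 1013 ± 24.9 (SD, n = 5) and 901 ± 27.2 (SD, n = 4) CPM, and at 10-12 months 1001 ± 27.9 (SD, n = 6) and 889.9 ± 27.7 (SD, n = 6) CPM. The sum was 8.69%, 11.1% and 11.1% lower, and the CHMP2Bintron5 libraries lay below every control at each age. Sums got no test, and Sdha makes up more than the other 3 genes together.

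Sdha (ENSMUSG00000021577, chromosome 13, 74322254 to 74350280, minus strand) encodes the flavoprotein that oxidises succinate. At 1.5 months Sdha stood between 544 and 643 CPM (median 594, n = 6) in controls and at 549, 529, 523, 468 and 525 CPM in CHMP2Bintron5 cord. At 6 months Sdha was at 575, 590.5, 617, 597 and 642 CPM in controls and at 545, 501, 487 and 505 CPM in CHMP2Bintron5 cord. At 10-12 months Sdha was between 578 and 669 CPM (median 597, n = 6) in controls and between 460.2 and 538 CPM (median 527, n = 6) in CHMP2Bintron5 cord. The groups separated at 6 and 10-12 months and overlapped by 1 library each at 1.5 months. Sdha differed by -0.21 ± 0.05 (SE; adjusted p = 0.0213), -0.25 ± 0.06 (SE; adjusted p = 0.00799) and -0.25 ± 0.05 (SE; adjusted p = 0.00117) on the log2 scale, and -0.24 ± 0.03 (SE; adjusted p = 1.72e-06) on average, 15.1% lower. The membrane anchors Sdhc and Sdhd followed at -0.12 ± 0.04 (SE; adjusted p = 0.022) and -0.13 ± 0.03 (SE; adjusted p = 0.000572) on average, and Sdhd (ENSMUSG00000000171, chromosome 9, 50596357 to 50603812, minus strand) was called at 10-12 months as well (-0.19 ± 0.04 SE, adjusted p = 0.00415). The average call of Sdhc was lost without CHMP2Bintron5 replicates 2 and 3 at 6 months and without control replicates 4 and 5 at 6 months. It was also lost without the 6 libraries with Acta1 above 30 CPM. Sdhb, the iron-sulfur subunit, was not called, at 0.12 ± 0.08 (SE; adjusted p = 0.223) with an interval of -0.04 to 0.28.

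**Figure D2:**
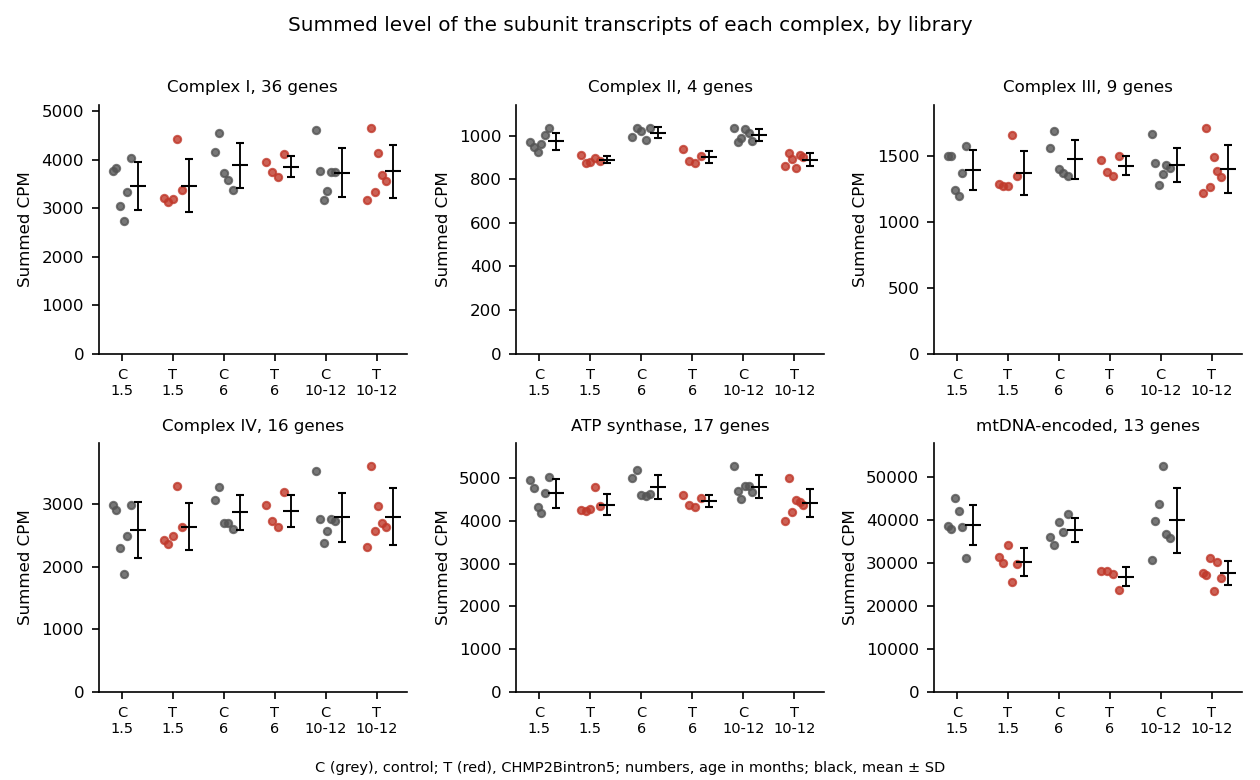
Summed CPM (vertical axes, starting at 0) of the genes of each complex in each library, by genotype and age (C, control; T, CHMP2Bintron5), with the mean and SD of each group in black. Transgenic libraries lie below every control of their age for complex II, the means of complex V and of the mtDNA-encoded genes are lower at each age, and complexes I, III and IV overlap widely.

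Complex III hands electrons from ubiquinol to cytochrome c, and 2 of its 9 genes fell, both at 10-12 months and on average (22.2%, against 10.4% and 19.2% of all genes). Uqcrc2 (ENSMUSG00000030884, chromosome 7, 120635176 to 120659524, plus strand) encodes a core protein that does not carry electrons itself. At 1.5 months Uqcrc2 stood between 234 and 296 CPM (median 261, n = 6) in controls and at 233, 232, 241, 202 and 232 CPM in CHMP2Bintron5 cord. At 6 months Uqcrc2 was at 231, 246, 257, 259 and 295 CPM in controls and at 219.9, 206, 200.4 and 188 CPM in CHMP2Bintron5 cord. At 10-12 months Uqcrc2 was between 235 and 313 CPM (median 256, n = 6) in controls and between 190.5 and 236 CPM (median 218, n = 6) in CHMP2Bintron5 cord. Of the 3 ages the groups separated at 6 months, and by all but 1 library each at the others. The test gave log2 fold changes of -0.21 ± 0.08 (SE; adjusted p = 0.134), -0.34 ± 0.08 (SE; adjusted p = 0.00971) and -0.31 ± 0.07 (SE; adjusted p = 0.00389). Uqcrfs1, the Rieske iron-sulfur protein, was called at 10-12 months (-0.16 ± 0.06 SE, adjusted p = 0.0408), a call that 17 of 32 single omissions ended, and on average (-0.15 ± 0.03 SE, adjusted p = 0.00103).

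The partner core protein Uqcrc1 and the catalytic cytochrome c1, Cyc1, were not called. Uqcrc1 was between 182 and 265 CPM (median 252, n = 6) in controls and between 208 and 291 CPM (median 241, n = 6) in CHMP2Bintron5 cord at 10-12 months. On average Uqcrc1 was at -0.01 ± 0.08 (SE; adjusted p = 0.949) with an interval of -0.17 to 0.16, and Cyc1 at 0.01 ± 0.05 (SE; adjusted p = 0.856) with -0.10 to 0.13. With the GC and length offsets both were called lower, Cyc1 at -0.27 (adjusted p = 0.00113) and Uqcrc1 at -0.13 (adjusted p = 0.00865).

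Cytochrome c, the soluble carrier between complexes III and IV and also a trigger of apoptosis once it leaves mitochondria, was lower as well. Cycs (ENSMUSG00000063694, chromosome 6, 50562563 to 50566538, minus strand) at 1.5 months was between 68.7 and 91.3 CPM (median 75.8, n = 6) in controls and at 58.7, 74.5, 63.4, 60.3 and 63.8 CPM in CHMP2Bintron5 cord. At 6 months Cycs was at 59.1, 57.5, 64.8, 63.7 and 65 CPM in controls and at 57.2, 54.1, 47.1 and 48.5 CPM in CHMP2Bintron5 cord. At 10-12 months Cycs was between 59.8 and 79.6 CPM (median 65.8, n = 6) in controls and between 47.5 and 54.8 CPM (median 51.9, n = 6) in CHMP2Bintron5 cord. The groups separated at 6 and 10-12 months, and at 1.5 months CHMP2Bintron5 replicate 2 lay inside the control range. The log2 differences were -0.27 ± 0.08 (SE; adjusted p = 0.0532), -0.26 ± 0.09 (SE; adjusted p = 0.0511) and -0.40 ± 0.08 (SE; adjusted p = 0.000608), so only the oldest age passed the test, and -0.31 ± 0.05 (SE; adjusted p = 9.25e-06) on average. With the GC and length offsets the average was -0.17 (adjusted p = 0.000759). Transcripts of 3 other genes share at least 100 bases with Cycs at 97% identity or more, and reads there may be split between them.

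**Figure D3:**
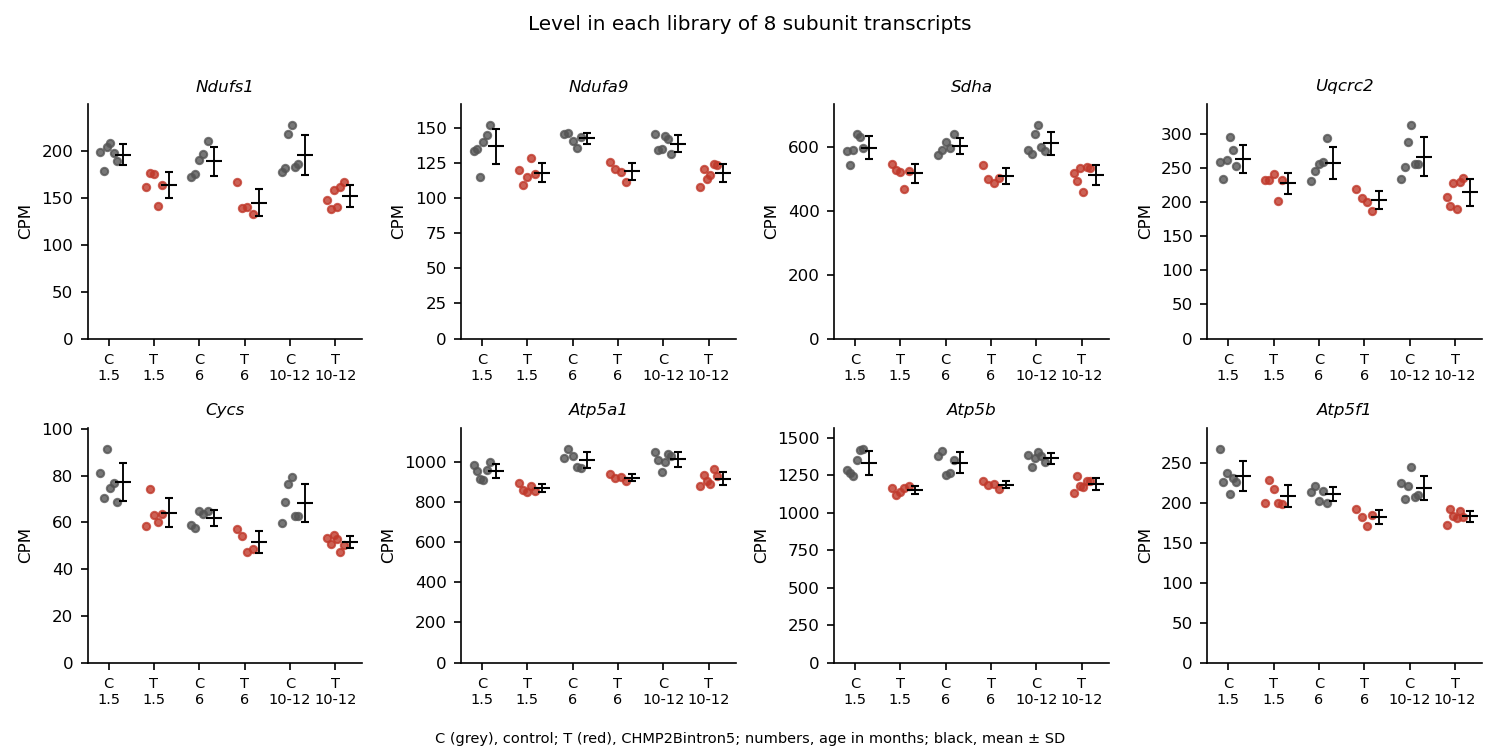
CPM (vertical axes, starting at 0) of 8 subunit transcripts in each of the 32 libraries, by genotype and age (C, control; T, CHMP2Bintron5), with the mean and SD of each group in black. Transgenic points lie below the controls with little or no overlap for Ndufs1, Sdha and Atp5b, for example 1117 to 1179 CPM against 1242 to 1422 CPM for Atp5b at 1.5 months.

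Complex IV, cytochrome c oxidase, reduces oxygen to water. Of its 16 genes 3 fell and 2 rose on average (18.8% and 12.5%, against 19.2% lower and 19.7% higher among all genes). At 10-12 months 1 fell and 1 rose (6.25% each, against 10.4% and 8.24%). The summed level was 2793 ± 394 (SD, n = 6) CPM in controls and 2803 ± 456 (SD, n = 6) CPM in CHMP2Bintron5 at that age. Cox4i1 and Cox5a, regulatory subunits against the catalytic core, were not called, at 0.08 ± 0.10 (SE; adjusted p = 0.545) and -0.08 ± 0.07 (SE; adjusted p = 0.367) on average, with intervals of -0.13 to 0.29 and -0.22 to 0.06. Cox7b and Ndufa4, the latter first described in complex I, were called on average alone, at -0.15 ± 0.05 (SE; adjusted p = 0.0123) and -0.14 ± 0.05 (SE; adjusted p = 0.0266). Both calls were lost with the GC and length offsets, and both without CHMP2Bintron5 replicates 2 and 3 at 6 months. That of Ndufa4 was also lost without the filter on low counts, without the 6 libraries with Acta1 above 30 CPM and without control replicates 4 and 5 at 6 months.

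Several subunits of complex IV exist as isoforms from separate genes, and the tissue isoforms stood far below the general ones in cord. Levels between genes are given as CPM per kb of annotated exon, averaged over 32 libraries, which understates genes with long rare exons. Cox4i1 was at 325 CPM per kb and Cox4i2, the lung form, at 2.66. Cox6b1 was at 424 and Cox6b2, the testis form, at 7.02. Cox7a2 was at 231, Cox7a2l, which joins complexes III and IV, at 120.5, and Cox7a1, the heart and muscle form, at 7.51 CPM per kb. Ndufa4 was at 266 and Ndufa4l2, known as a hypoxia-induced relative, at 2.77. The genes left out for level belong here too, with Cox6a2, a muscle form, reaching at most 2.36 CPM, in 1 of the libraries with Acta1 above 30 CPM.

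The isoforms were also where the 2 increases and the largest decrease among the called genes lay. Cox7a1 (ENSMUSG00000074218, chromosome 7, 30184144 to 30186078, plus strand) was between 2.75 and 6.12 CPM (median 4.65, n = 6) in controls and at 3.27, 3.75, 7.21, 4.75 and 3.27 CPM in CHMP2Bintron5 cord at 1.5 months. At 6 months Cox7a1 was at 3.56, 4.84, 3.7, 5.12 and 5.92 CPM in controls and at 3.72, 2.41, 2.52 and 2.85 CPM in CHMP2Bintron5 cord. At 10-12 months Cox7a1 was between 3.56 and 5.43 CPM (median 4.55, n = 6) in controls and between 2.08 and 4.34 CPM (median 2.86, n = 6) in CHMP2Bintron5 cord. The groups overlapped at each age. Cox7a1 differed on the log2 scale by -0.03 ± 0.22 (SE; adjusted p = 0.967), -0.69 ± 0.25 (SE; adjusted p = 0.0663) and -0.61 ± 0.21 (SE; adjusted p = 0.0416), the last lost in 8 of 32 omissions, and -0.44 ± 0.13 (SE; adjusted p = 0.0084) on average. Summed skeletal muscle markers ran from 95.7 to 782 CPM across libraries and were 51.0% lower in CHMP2Bintron5 at 6 months and 23.7% higher at 10-12 months. Without CHMP2Bintron5 replicate 3, the highest library, the value at 10-12 months was -35.0%. Without the 6 libraries with Acta1 above 30 CPM Cox7a1 kept its calls at 10-12 months and on average.

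Cox6b2 (ENSMUSG00000051811, chromosome 7, 4751792 to 4753094, minus strand) at 10-12 months was between 5.03 and 8.76 CPM (median 7.03, n = 6) in controls and between 7.93 and 16 CPM (median 8.63, n = 6) in CHMP2Bintron5 cord, with 1 library, replicate 2, far above the other CHMP2Bintron5 values. Cox6b2 differed by 0.53 ± 0.18 (SE; adjusted p = 0.0376) on the log2 scale at that age, 0.35 (adjusted p = 0.169) without replicate 2, and 0.32 ± 0.11 (SE; adjusted p = 0.0213) on average. Cox8a (ENSMUSG00000035885, chromosome 19, 7215153 to 7217616, minus strand), the general form of the smallest subunit, was between 169 and 294 CPM (median 186, n = 6) in controls and between 182 and 361 CPM (median 225, n = 6) in CHMP2Bintron5 cord at 10-12 months. It was called on average alone (0.29 ± 0.10 SE, adjusted p = 0.0305). With the GC and length offsets neither was called, with Cox6b2 at 0.11 (adjusted p = 0.219) and Cox8a at -0.03 (adjusted p = 0.729), where the sign turned.

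**Figure D4:**
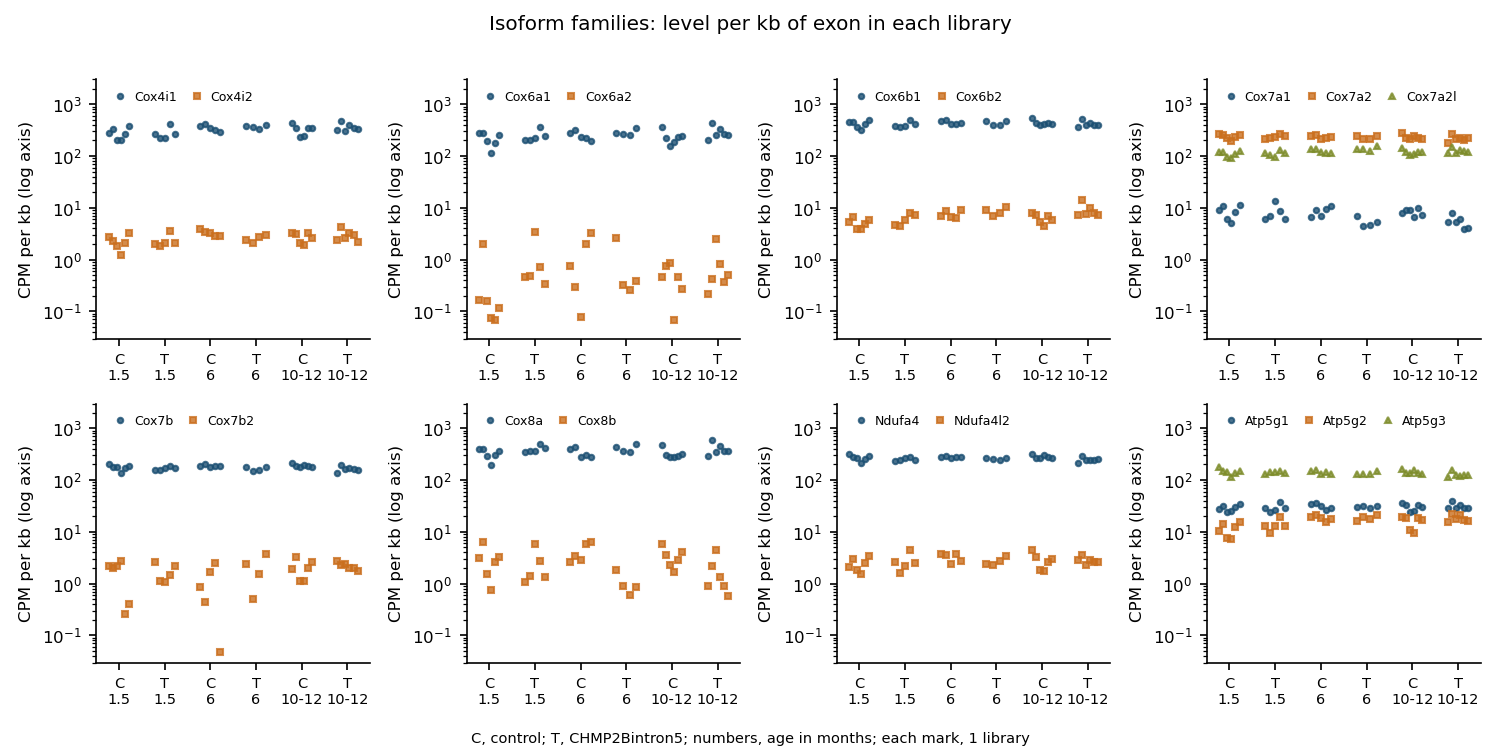
Level per kb of exon (vertical log axes, CPM per kb) of each gene in 8 isoform families in each library, by genotype and age (C, control; T, CHMP2Bintron5). In the families of complex IV the general form lies well above the tissue form in all groups, and the 3 c-ring genes of the ATP synthase keep their order, Atp5g3 above Atp5g1 above Atp5g2, in the group means.

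In the ATP synthase 6 of 17 genes fell on average (35.3%, against 19.2% of all genes) and none rose, all 6 in the catalytic head or the stalk. At 10-12 months 5 of its 17 genes fell (29.4%, against 10.4%), 3 of 5 in the head and 2 of 5 in the stalk. None of the 3 c-ring genes or the 4 small membrane subunits was called in either direction at any age or on average. With the GC and length offsets the membrane subunits Atp5k and Atp5mpl were called lower on average, at -0.19 (adjusted p = 0.00774) and -0.17 (adjusted p = 0.00751), and Atp5k also at 10-12 months, at -0.33 (adjusted p = 0.00802). Summed over the 17 genes the level was 4805 ± 266 (SD, n = 6) CPM in controls and 4424 ± 335 (SD, n = 6) CPM in CHMP2Bintron5 at 10-12 months, 7.95% lower. At 1.5 and 6 months the sum was 5.73% and 7.09% lower.

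Atp5b (ENSMUSG00000025393, chromosome 10, 128083273 to 128090391, plus strand) encodes the beta subunit, which holds the catalytic sites, and had the highest mean CPM of the 91 genes and the lowest spread within groups. At 1.5 months Atp5b stood between 1242 and 1422 CPM (median 1319, n = 6) in controls and at 1164, 1117, 1135, 1167 and 1179 CPM in CHMP2Bintron5 cord. At 6 months Atp5b was at 1379, 1409, 1251, 1267 and 1354 CPM in controls and at 1213, 1185, 1189 and 1157 CPM in CHMP2Bintron5 cord. At 10-12 months Atp5b was between 1305 and 1401 CPM (median 1369, n = 6) in controls and between 1130 and 1245 CPM (median 1192, n = 6) in CHMP2Bintron5 cord. Each CHMP2Bintron5 library lay below each control of its age. Atp5b differed by -0.21 ± 0.04 (SE; adjusted p = 0.00293), -0.17 ± 0.05 (SE; adjusted p = 0.0207) and -0.19 ± 0.04 (SE; adjusted p = 0.00167) on the log2 scale, and -0.19 ± 0.03 (SE; adjusted p = 1.38e-06) on average, 12.3% lower. The call at 1.5 months stood through all 32 single omissions, and with the GC and length offsets the values at 6 and 10-12 months were -0.13 (adjusted p = 0.128) and -0.13 (adjusted p = 0.0843).

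Atp5a1, the alpha subunit that alternates with beta in the head, differed by less. At 1.5 months Atp5a1 stood between 910.1 and 1001 CPM (median 959, n = 6) in controls and at 899, 860.5, 853, 880.0 and 859 CPM in CHMP2Bintron5 cord. At 6 months Atp5a1 was at 1024, 1065, 1030, 975 and 969 CPM in controls and at 942, 919.9, 929 and 906 CPM in CHMP2Bintron5 cord. At 10-12 months Atp5a1 was between 951 and 1050 CPM (median 1022, n = 6) in controls and between 883 and 969 CPM (median 918, n = 6) in CHMP2Bintron5 cord. The groups separated at 1.5 and 6 months, and at 10-12 months the highest transgenic library lay above the lowest control. The log2 differences in Atp5a1 were -0.13 ± 0.04 (SE; adjusted p = 0.0469), -0.13 ± 0.04 (SE; adjusted p = 0.0452) and -0.14 ± 0.04 (SE; adjusted p = 0.00859), and with the offsets -0.20 (adjusted p = 1.47e-08) on average against -0.14 without them. Single omissions ended the calls at 1.5 and 6 months in 20 and 17 of 32 cases.

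Atp5c1 (ENSMUSG00000025781, chromosome 2, 10056016 to 10080510, minus strand), the gamma shaft that turns inside the head, was at -0.15 ± 0.04 (SE; adjusted p = 0.0136) at 10-12 months and -0.14 ± 0.03 (SE; adjusted p = 0.000165) on average. Atp5f1 (ENSMUSG00000000563, chromosome 3, 105942698 to 105960099, minus strand), subunit b of the stalk, was between 204 and 245 CPM (median 215, n = 6) in controls and between 172 and 192 CPM (median 182, n = 6) in CHMP2Bintron5 cord at 10-12 months, with no overlap. The log2 difference was -0.26 ± 0.05 (SE; adjusted p = 0.00197), and with the GC and length offsets -0.07 (adjusted p = 0.623). Atp5j, another stalk subunit, was at -0.23 ± 0.07 (SE; adjusted p = 0.0218) at 10-12 months. The small head subunits Atp5d and Atp5e were not called, at 0.28 ± 0.15 (SE; adjusted p = 0.138) and 0.16 ± 0.12 (SE; adjusted p = 0.277) on average.

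No gene's genotype effect was shown to change with age. For the effects at 6 against 1.5 months 0 of the 91 genes passed in edgeR (0.155% of all genes, 0.0749% lower and 0.0799% higher) and 0 had an unadjusted p under 0.05, and for 10-12 against 1.5 months 0 passed (0.00999% of all genes) and 2 had an unadjusted p under 0.05. DESeq2 gave 0 in both as well. The lowest adjusted p was 0.627 and 0.72. The counts of called genes at the 3 ages rest on different numbers of libraries.

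The spread of these genes within groups went with length, and the direction of their genotype difference with base composition. In the 45 shorter genes (median exon length 1032 bases) the coefficient of variation within a group had a median of 17.2% and a range of 3.99% to 39.6%. In the 46 longer genes (median 2843 bases) it had a median of 9.73% and a range of 2.98% to 38.1%. The lowest were Atp5b at 2.98%, Atp5a1 at 3.55% and Atp5c1 at 3.65%, and the highest Uqcr11 at 39.6%, Uqcrq at 38.1% and Ndufaf8 at 37.8%. The SE of the averaged log2 fold change was 0.03 for Atp5b and 0.19 for Uqcr11, a small subunit of complex III, so a difference of Atp5b's size was not detectable in the latter with these libraries.

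By GC content, the 45 genes below 50.49% had a median averaged log2 fold change of -0.09, with 86.7% below zero. Of these, 20 were called lower (44.4%, against 29.3% of all genes in that range) and 0 higher (against 8.81%). In the 46 genes at or above 50.49% the median was 0.09, with 28.3% below zero. There 3 were called lower (6.52%, against 7.21% of all genes) and 2 higher (4.35%, against 32.8%). All genes tested split the same way in median and sign, with medians of -0.09 and 0.14 and 66.1% and 25.4% below zero. Across the 91 genes the averaged log2 fold change correlated with GC content (Pearson's r = 0.636, Spearman's rho = 0.673), where genes share libraries and are not independent.

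With per-library offsets for GC content and length the lower calls were more numerous and no gene was called higher. On average 32 genes fell (35.2%), against 20.1% lower and 17.4% higher among all genes, and 75.8% were below zero, beside 50.6% of all genes. At 1.5, 6 and 10-12 months 12, 15 and 19 fell (13.2%, 16.5% and 20.9%), against 5.73%, 9.08% and 11% of all genes. Of the 25 genes called on average without the offsets 17 remained, and 15 others were added, such as Ndufv1 at -0.16 (adjusted p = 0.000336), Ndufs8, an iron-sulfur core subunit, at -0.18 (adjusted p = 0.000416) and Cox6b1 at -0.20 (adjusted p = 1.21e-06). The part of base composition and length in the differences without offsets was not tested further than this.

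**Figure D5:**
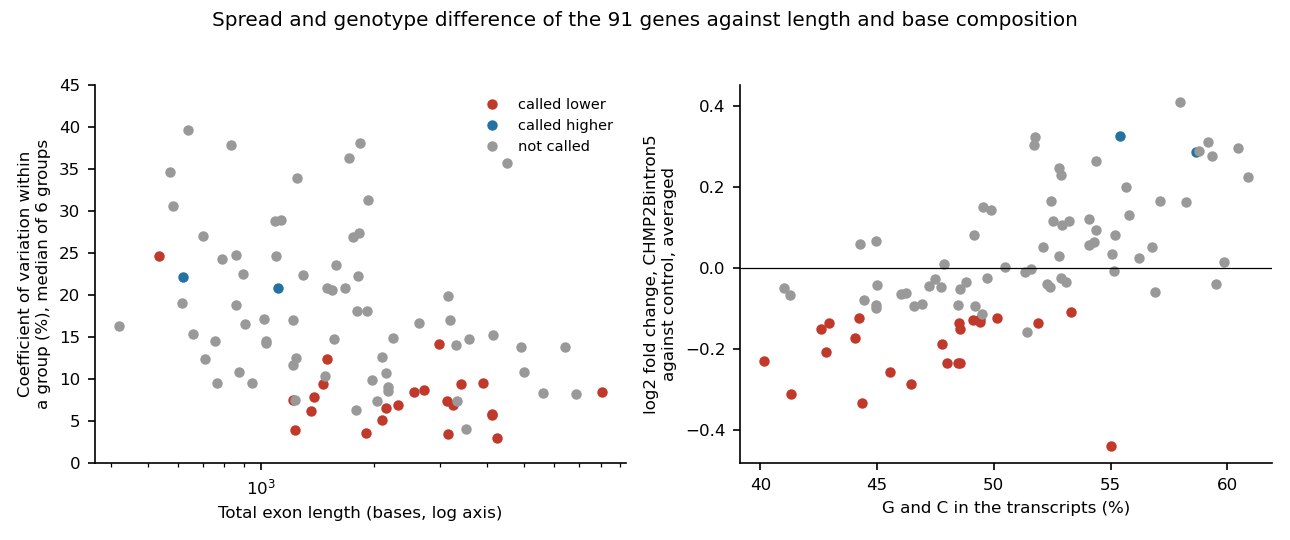
Left, coefficient of variation within a group (%, median of the 6 groups) against total exon length (bases, log axis) for the 91 genes. Right, genotype log2 fold change averaged over the 3 ages against G and C content (%), with red for genes called lower, blue for higher and grey for neither; the longer genes on the left have the lower median spread, 9.73% against 17.2%, and most red points on the right lie below 50.49% GC.

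The 6-month calls rested on few libraries. Without CHMP2Bintron5 replicates 2 and 3, which held the sensory ganglion transcripts, 0 of the 91 genes were called at 6 months, with 2 CHMP2Bintron5 libraries left, while all genes went from 5.68% to 2.16% lower. The log2 fold change of Ndufs1 was then -0.33 (adjusted p = 0.0796) and that of Sdha -0.20 (adjusted p = 0.127), against -0.38 and -0.25 with them. Without control replicates 4 and 5 at that age, or without the 6 libraries with Acta1 above 30 CPM, 2 genes were called. The shares of all genes called in these fits are not given here, so the drop cannot be read as particular to the 91 genes. On average over the ages 15 fell and 2 rose without the sensory-transcript pair (16.5% and 2.2%, against 17.4% and 17% of all genes), all of them among the 25.

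The summed level of the mtDNA-encoded subunits was lower by a larger share than that of the nuclear ones, a difference that was not itself tested. It was 38954 ± 4693 (SD, n = 6) CPM in controls and 30236 ± 3178 (SD, n = 5) CPM in CHMP2Bintron5 at 1.5 months, 22.4% lower. At 6 months the sums were 37724 ± 2809.9 (SD, n = 5) and 26869.7 ± 2171 (SD, n = 4) CPM, 28.8% lower, and at 10-12 months 39994 ± 7635 (SD, n = 6) and 27719 ± 2794 (SD, n = 6) CPM, 30.7% lower. Beside these, the sum of the 91 nuclear genes differed by -2.58%, -3.68% and -3.74%. Single omissions gave -6.96% (without CHMP2Bintron5 replicate 4) to -0.211% (without control replicate 6) at 1.5 months, -5.42% to -0.717% (without control replicates 5 and 2) at 6 months and -7.54% (without CHMP2Bintron5 replicate 2) to -0.342% (without control replicate 1) at 10-12 months. Without CHMP2Bintron5 replicates 2 and 3 the 6-month value was 0.351%, and that of the mtDNA-encoded sum -31.4%. Of 13 mtDNA genes 3, 5 and 8 fell at the 3 ages and 9 on average, and none rose; with the GC and length offsets 7 fell and 1 rose. The catalytic subunit of complex IV, mt-Co1, was at -0.54 ± 0.07 (SE; adjusted p = 6.55e-07) on average, and mt-Nd2 and mt-Nd1 of complex I at -0.64 ± 0.08 and -0.48 ± 0.07. Counts were very uneven between these genes, with mt-Co1 at 5498 to 13470 CPM and mt-Co2 and mt-Co3, its partners in the same enzyme, at no more than 1.26 and 1.69 CPM in any library. How reads from these genes were counted was not tested.

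Lists of other mitochondrial genes and of glycolytic genes were read by their counts on average over the ages, beside 19.2% lower and 19.7% higher for all genes. Of 20 genes of the citric acid cycle and pyruvate entry 14 fell and 1 rose. Mdh1, malate dehydrogenase of the cytosol and not of the cycle itself, was at -0.31 ± 0.03 (SE; adjusted p = 2.59e-09), Cs, citrate synthase, at -0.22 ± 0.02 (SE; adjusted p = 7.61e-08), and Sucla2, a subunit of succinyl-CoA ligase, at -0.39 ± 0.05 (SE; adjusted p = 1.49e-06). Idh2, the NADPH-making isocitrate dehydrogenase, was the one that rose, at 0.43 ± 0.06 (SE; adjusted p = 4.92e-06). In all 32 libraries Cs lay between 261 and 355 CPM, with no control under 317 CPM and no CHMP2Bintron5 library above 311 CPM.

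Among 21 genes of ADP, ATP and phosphate transport and of redox defence 10 fell and 2 rose, with Sod2, the mitochondrial superoxide dismutase, at -0.45 ± 0.04 (SE; adjusted p = 8.27e-09) and Slc25a3, the phosphate carrier, at -0.26 ± 0.03 (SE; adjusted p = 1.49e-07). Of 21 regulators of mitochondrial biogenesis 5 fell and 2 rose. Esrrg, an ERR receptor, was at -0.72 ± 0.09 (SE; adjusted p = 9.06e-07), Ppargc1a, the coactivator PGC-1alpha, at -0.53 ± 0.08 (SE; adjusted p = 3.99e-06) and Nrf1 at 0.23 ± 0.06 (SE; adjusted p = 0.00248). Ppargc1a stood between 49.4 and 73.4 CPM (median 63.7, n = 6) in controls and between 30.6 and 48.2 CPM (median 44.3, n = 6) in CHMP2Bintron5 cord at 10-12 months, without overlap. Of 45 assembly factors outside the 91 genes 15 fell and 2 rose, with Sdhaf3, a factor of complex II, at -0.44 ± 0.06 (SE; adjusted p = 7.92e-07). Of 19 glycolytic genes 3 fell and 3 rose, with Pgk1 at -0.39 ± 0.04 (SE; adjusted p = 1.64e-08), of 24 import genes 6 fell and 5 rose, and of 77 proteins of the mitochondrial ribosome 13 fell and 8 rose. With the GC and length offsets 17 citric acid cycle genes fell and 1 rose, and 8 glycolytic genes fell and 3 rose.

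Few of the 91 genes were called for age alone. In controls, 6 months against 1.5 months had 2 genes lower and 4 higher, 2.2% and 4.4% of the 91, against 5.37% lower, 4.92% higher and 10.3% in all among the genes tested. In edgeR 31 of the 91 had an unadjusted p under 0.05 there, with no share of all genes given at that level. Cycs (-0.32 ± 0.08 SE, adjusted p = 0.0117) and Ndufaf4 (-0.30 ± 0.09 SE, adjusted p = 0.0402) fell, and Atp5g2 (0.72 ± 0.19 SE, adjusted p = 0.0169), Cox7c (0.82 ± 0.25 SE, adjusted p = 0.0329), Ndufc2 (0.45 ± 0.15 SE, adjusted p = 0.0438) and Ndufaf8 (1.05 ± 0.34 SE, adjusted p = 0.0483) rose. Only the call of Cycs stood through all 32 single omissions. In controls at 10-12 against 1.5 months 0 of 91 genes passed in edgeR and 6 had an unadjusted p under 0.05 (all genes, 2.51% lower, 1.67% higher and 4.18% in all), and DESeq2 gave 0 too. Lowest in p were Atp5g2 at 0.48 ± 0.18 (SE; adjusted p = 0.146), Uqcrb at -0.24 ± 0.09 (SE; adjusted p = 0.15), Atp5a1 at 0.09 ± 0.04 (SE; adjusted p = 0.205), Cycs at -0.18 ± 0.08 (SE; adjusted p = 0.206) and Uqcrfs1 at -0.13 ± 0.06 (SE; adjusted p = 0.212).

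In CHMP2Bintron5 cord Cycs alone fell at 6 against 1.5 months (-0.31 ± 0.09 SE, adjusted p = 0.0378; all genes, 2.2% lower, 2.59% higher and 4.79% in all). At 10-12 against 1.5 months Ndufb2 (-0.27 ± 0.07 SE, adjusted p = 0.0223), Uqcrb (-0.35 ± 0.10 SE, adjusted p = 0.0292), Cycs (-0.31 ± 0.08 SE, adjusted p = 0.016) and Atp5f1 (-0.19 ± 0.06 SE, adjusted p = 0.0437) fell, 4.4% of the 91, against 3.47% lower and 3.12% higher. CHMP2Bintron5 replicate 4 at 1.5 months bore on these counts, since without it 17 genes were called at 6 months and 16 at 10-12 months, and without replicate 2 none at either age. Shares of all genes called under these omissions are not given here. With all libraries, 15 of the 91 at 6 months and 18 at 10-12 months had an unadjusted p under 0.05 in edgeR. Cycs stood at 51.6 ± 2.57 (SD, n = 6) CPM in the oldest and 51.7 ± 4.76 (SD, n = 4) CPM in the 6-month transgenic group. The 1.5-month transgenic values, the ones to compare by age, are given with Cycs above. Young controls, which differ from the older transgenic groups in both genotype and age, stood at 77.3 ± 8.24 (SD, n = 6) CPM.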

How the data were processed

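Poly(A) RNA of spinal cord was sequenced from 32 samples with a stranded kit, per the labels' protocols. The authors deposited whole-number counts per gene as one table. The submitters' processing notes name TopHat2 2.0.14, Bowtie2 2.1.0, HTSeq 0.6.1 and the mm10 build, with annotation release and strand setting not given in the sources used here. Gene symbols, positions, lengths and GC content come from GENCODE M21 (GRCm38), which matched 45143 of 45706 rows.

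Counts were filtered with filterByExpr (minimum count 10, total 15), scaled by TMM and fitted in edgeR 4.0.16 (R 4.3.3) with a term for each of the 6 groups over all 32 libraries. Quasi-likelihood tests gave the p-values, adjusted by Benjamini-Hochberg over 20015 genes. CPM values use the TMM-scaled library sizes. The edgeR fit in its main setting was tested on simulated counts. Alternatives were DESeq2 1.42.0, its size factors in edgeR, no filter, a replicate block, loess offsets for GC content and length (span 0.3), fits of the compared groups alone, and fits leaving out libraries. Summed levels without single libraries, or without the 6-month pair with sensory neuron transcripts, were added after the data were seen. No 2 count columns were identical.

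The genes and lists were chosen with earlier results of these data known. Named genes are those of lowest p in each comparison, isoform families and landmark subunits, and other names were chosen after their values were seen. Copies were found with BLAST 2.17.0: 36 of the 91 genes share at least 100 bases at 97% identity or more with a transcript of another gene, and the exons of 28 overlap a gene on the opposite strand, so their counts are less certain. Among genes called at a single age or on average these include Ndufs1, Uqcrc2, Atp5a1, Atp5c1, Atp5h and Atp5j with 1 such gene each, Atp5f1 and Cycs with 3 and Ndufaf2 with 18. One gene is counted in the totals but not reported by name here.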

Additional observations from a re-analysis of the deposited data

Results flagged for a closer look

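In groups of 4 to 10 samples, 18 of 246 groups checked held 1 library far from the others by Dixon's criterion, and chance alone flags about 1 in 20 groups. Most of the 18 came from 3 libraries.

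CHMP2Bintron5 replicate 4 at 1.5 months had the highest level in its group for Cox4i1 (636 CPM, others 342 to 419), Cox4i2 (2.76 CPM, others 1.47 to 1.67), Cox6a1 (251 CPM, others 141 to 169), Ndufs7 (104 CPM, others 32.1 to 51.3) and Sdhb (171 CPM, others 96.7 to 118). Its summed level was highest for complex I (4430 CPM, others 3130 to 3380), complex III (1660 CPM, others 1270 to 1350), complex V (4810 CPM, others 4240 to 4340) and all 91 genes (15400 CPM, others 12200 to 12900). Uqcrc2 was lowest in the same library (201 CPM, others 232 to 241).

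Control replicate 1 at 10-12 months was highest for Cox6b1 (382 CPM, others 277 to 310), Cox8a (294 CPM, others 169 to 197), the sum of complex IV (3530 CPM, others 2380 to 2770) and the sum of all 91 genes (16400 CPM, others 12600 to 14000). CHMP2Bintron5 replicate 2 at 10-12 months was highest for Atp5g3 (337 CPM, others 254 to 277) and Cyc1 (244 CPM, others 183 to 199).

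Control replicate 1 at 1.5 months was highest for Atp5c1 (268 CPM, others 253 to 257). CHMP2Bintron5 replicate 4 at 6 months had the lowest sum of mtDNA-encoded subunits (23700 CPM, others 27500 to 28200).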

How the results depend on the processing

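Among called values Cox8a changed sign, from 0.29 on average to -0.03 with GC and length offsets and -0.04 with these and the replicate block, and no other did under the alternatives run. The differences between ages gave 0 calls throughout. The counts of called genes moved as follows, where the cause was not tested unless libraries were removed. Shares of all genes called are not given beside most of these counts, so those changes cannot be read as particular to the family. For genotype, GC and length offsets took the share of all genes called lower from 1.97% to 5.73% at 1.5 months. At 6 months it went from 5.68% to 9.08%. The share called higher went from 1.76% to 2.88% and from 5.68% to 7.7%. Without the sensory-transcript pair the 6-month shares went from 5.68% to 2.16% lower and from 5.68% to 2.21% higher. For genotype at 1.5 months (6 genes) the count was 1 without a filter on low counts, 12 with GC and length offsets, 11 with these and the replicate block, 3 without the libraries with Acta1 above 30 CPM and 0 with only the compared groups. Single omissions gave 1 to 7, with 1 without CHMP2Bintron5 replicate 5, 2 without control replicate 5, and 3 without control replicates 1, 4 or 6 or CHMP2Bintron5 replicates 3 or 4. At 6 months (7) it was 4 with no filter, 15 and 14 with the offsets without and with the block, 0 without the sensory-transcript pair, 2 without the Acta1 libraries and 2 without control replicates 4 and 5. Single omissions gave 3 to 9, with 3 without CHMP2Bintron5 replicate 4 and 4 without control replicates 1 or 2. At 10-12 months (17) they gave 13 to 19, and on average (25) 22 to 27. For age in controls at 6 months (6) the count was 3 with no filter, 15 and 19 with the offsets without and with the block, 12 without the Acta1 libraries and 10 with DESeq2, and single omissions gave 1 to 16, with 1 without control 6-month replicate 2 and 16 without control 1.5-month replicate 6. At 10-12 months (0) it was 4 with the offsets, with or without the block. For age in CHMP2Bintron5 at 6 months (1) it was 5 and 3 with the offsets without and with the block, 4 with DESeq2, and 0 without the sensory-transcript pair, without the Acta1 libraries or with only the compared groups, and single omissions gave 0 to 17. At 10-12 months (4) it was 1 with the replicate block, 0 without the Acta1 libraries and 7 with DESeq2, and single omissions gave 0 to 16. Same-numbered samples deviated with correlations of -0.388 to 0.344. Replicate 3 at 10-12 months alone correlated best with its same-numbered control. These values did not show that the numbers pair the samples, and they cannot exclude it. The replicate block gave 4, 6, 16 and 25 calls for genotype at the 3 ages and on average. Of values recomputed for single named genes, 24 lost their call, 4 gained one and 214 did neither, and under single omissions 17 lost it and 783 did not.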
